A study of Arabidopsis thaliana with 6 samples.

Results

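Of the NAC transcription factor family, NAC014 was the single gene that the annotation used here ties to a probe set, and this probe set stayed at a low level in bundle sheath cells (BSCs) and mesophyll cells (MCs) alike. The family was taken as the genes whose current symbol is NAC, ANAC, VND, NST or CUC followed by a number. Of 87 such genes in the gene table, 1 had a probe set with a gene name here. The other 86 were not analysed here. They include VND7 and VND1, NST1, and CUC1, CUC2 and CUC3. A further 13 genes carry an ANAC number only as a synonym, such as ATAF1 and RD26, and 0 of them had a named probe set. In all, 22746 Arabidopsis probe sets were measured, of which 13482 had the name of 1 gene, for 13332 genes in all. What follows therefore describes NAC014 and not the family.

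The cells came from leaves of Arabidopsis thaliana of the ecotype Landsberg (Ler) that express green fluorescent protein (GFP) under the SCARECROW promoter, which marks the bundle sheath. Both cell types carried this transgene, and the labels state no treatment. The protoplasts of both were released from leaf pieces by a brief digestion of the cell wall with enzymes, the same for both, and leaves without this digestion were not measured. BSC protoplasts were picked by hand for their fluorescence and small diameter, MC protoplasts for their larger diameter and lack of fluorescence. Each of the 3 BSC and 3 MC samples was the RNA of 20 protoplasts, amplified in several rounds and hybridized to 1 Affymetrix ATH1 array. The numbers in the labels name the arrays here, 3, 5 and 7 for BSCs and 4, 6 and 8 for MCs. Values are the deposited log2 of the normalized expression level per probe set, log2(NREL).

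NAC proteins share a DNA-binding domain near the amino terminus, named after NAM, ATAF and CUC, and a variable region behind it that activates or represses transcription. Members are known for leaf senescence and responses to drought and abscisic acid (ATAF1, RD26), for the secondary walls of xylem vessels and fibres (VND and NST genes) and for the boundaries between organs (CUC genes). NAC014 (AT1G33060) belongs to the members with a predicted membrane-spanning segment near the carboxyl terminus. Such proteins are held at a membrane, and their release lets the DNA-binding part enter the nucleus, a step that a transcript level does not report. Of 15 membrane-bound members listed, NAC014 was the 1 with a named probe set.

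The NAC014 probe set, 261616_at, had a log2(NREL) of 1.50 on BSC array 3, 1.74 on BSC array 5 and 1.73 on BSC array 7. On MC arrays 4, 6 and 8 it was 1.67, 1.58 and 1.75. The values of the cell types overlapped. BSC array 3 was the lowest of the 6 and MC array 8 the highest, with BSC arrays 5 and 7 close to the latter, and the whole range was 0.25.

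**Figure D1:**
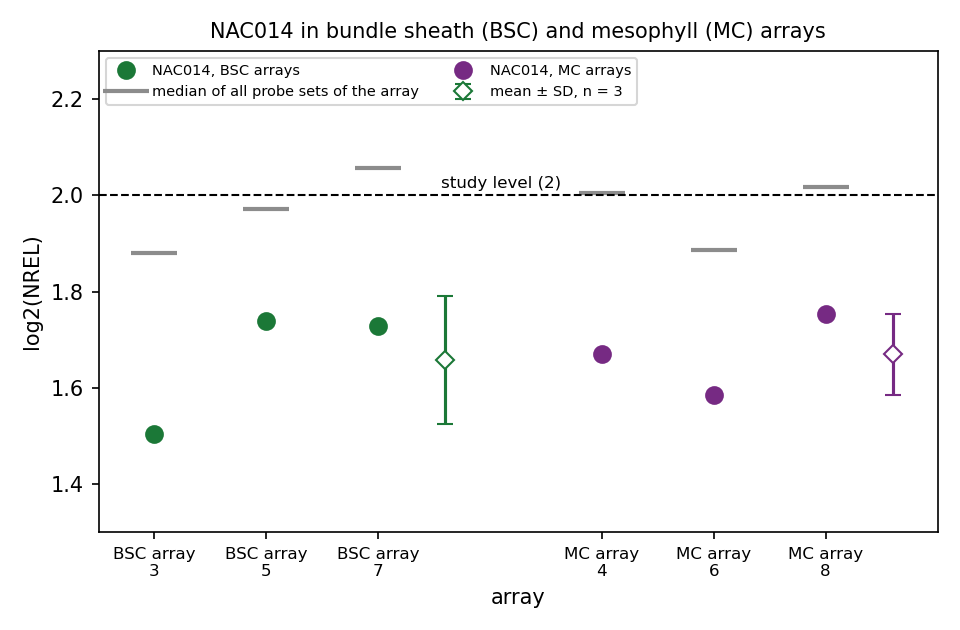
Log2(NREL) of NAC014 (vertical axis) on each of the 6 arrays (horizontal axis), green points for BSCs and purple points for MCs. Open diamonds are the mean ± SD of 3 arrays, grey bars the median of all probe sets on that array, and the dashed line the level of 2 that the study uses for expressed genes. All 6 points, between 1.50 and 1.75, lie below that line, and the arrays with the lowest medians also hold the lowest points.

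Averaged over the 3 arrays of a cell type, NAC014 was at 1.66 ± 0.13 (SD, n = 3) in BSCs. The MC average was 1.67 ± 0.08 (SD, n = 3). The study takes a log2(NREL) of 2 as the level of expressed genes, and 0 of the 6 arrays reached it. A mean of at least 2 was reached by 49.7% of all probe sets in BSCs and by 48.5% in MCs, and 45.0% were below it in both cell types, as NAC014 was. This level is no limit of detection. A signal also depends on how well the probes bind, so the value does not rank NAC014 against other genes and does not show whether its transcript was present.

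NAC014 was lowest on the arrays with the lowest medians. BSC array 3 and MC array 6 had the smallest medians, 1.88 and 1.89, against 1.97 to 2.06 on the others. These arrays were not lower throughout. They also held the most probe sets at a log2(NREL) of 5 or more, 1147 and 1157, against 78 to 613 on the others. Relative to the median of its array, NAC014 was at -0.38, -0.23 and -0.33 on BSC arrays 3, 5 and 7. It was at -0.34, -0.30 and -0.26 on MC arrays 4, 6 and 8. The mean distance was -0.31 ± 0.07 (SD, n = 3) for the BSC arrays. For the MC arrays it was -0.30 ± 0.04 (SD, n = 3), so that the SD of each cell type was smaller than for the level itself, and the groups again overlapped.

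The test between BSCs and MCs was limma, in which the spread of a probe set is estimated with the help of all others. To be called higher or lower, a gene had to pass the study's thresholds, a fold change of 1.5 or more in either direction with p under 0.05 before adjustment. NAC014 did not pass them, either in limma or by the methods' t-test, and its unadjusted p was above 0.05 in both. Of all probe sets, 0.501% passed in limma (0.141% higher and 0.361% lower in BSCs) and 0.18% by the methods' t-test. An unadjusted p under 0.05 was found for 1.6% in limma and for 2.26% by the methods' t-test. Its log2 fold change, BSC minus MC, was -0.01 (standard error 0.11), with an unadjusted p of 0.916 and a Benjamini-Hochberg adjusted p of 1 in limma. An exact 2-sided permutation test over the 6 arrays gave p = 0.8, where the smallest p that 3 arrays against 3 allow is 0.1. The arrays are given as biological replicates. The study states that both cell types were extracted together, but no pairing between BSC and MC arrays is stated.

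The 95% confidence interval of the NAC014 log2 fold change ran from -0.29 to 0.27, that is from 0.817-fold to 1.20-fold in BSCs relative to MCs. A 1.5-fold difference, 0.585 on the log2 scale, lay outside it in both directions. The interval applies to the probe set's signal. Near the lower end of an array's range, signal that does not come from the transcript makes a difference in log2 values smaller than the difference in RNA. Fewer cells with the transcript and less of it per cell cannot be told apart in pools of protoplasts.

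**Figure D2:**
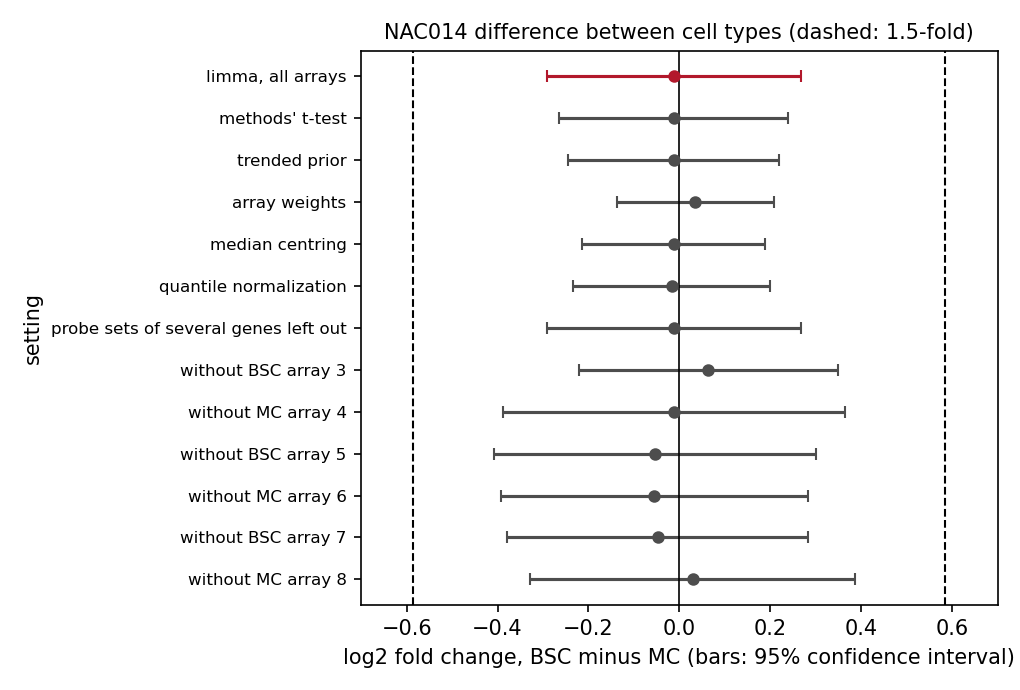
Log2 fold change of NAC014 between BSCs and MCs (horizontal axis, BSC minus MC) under each processing setting (vertical axis), with the limma value of all arrays in red. Bars are 95% confidence intervals and dashed lines mark a 1.5-fold difference in either direction. Every interval crosses 0 and stays inside the dashed lines, with bounds from -0.41 to 0.39.

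The sign of the NAC014 difference changed with the arrays used. Without BSC array 3, the array with its lowest value, the log2 fold change was 0.06, and without MC array 8, with its highest value, it was 0.03. Without each of the other arrays it lay between -0.05 and -0.01. No direction is therefore given for NAC014.

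Against all probe sets, NAC014 was among those that moved little. Of the 22746, 6.76% had a smaller absolute log2 fold change and 10.4% a smaller range over the 6 arrays. Among the 4281 probe sets with a mean within 0.1 of that of NAC014, 21.8% had a smaller range, and their median range was 0.36. An interval inside 1.5-fold in both directions was not particular to NAC014, since 58.8% of all probe sets had one. Of all probe sets 6% had no overlap between the arrays of BSCs and MCs, which was not the case for NAC014.

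Genes that NAC proteins are known to act on were examined from lists of 42 genes, of which 9 had a named probe set. Of these 9, SAG13 was higher and AOX1A was lower in BSCs in limma, beside 0.141% and 0.361% of all probe sets. Both have a name here only through the study's own selection of differing genes from the same arrays, which favours a call, so they are no independent evidence. The other 7 did not pass, with log2 fold changes from -0.09 to 0.40. In the mitochondrial stress list of AOX1A, NDB4 was at 0.04, AT5G51440 at 0.01 and AT2G21640 at -0.09. In the senescence list of SAG13, WRKY53 was at 0.09 and SAG29 at -0.02. The secondary wall gene GUT2 was at 0.15 and the organ boundary gene LAS at 0.40. The mitochondrial alternative oxidase gene AOX1A, a target of other membrane-bound NAC proteins, had a log2(NREL) of 7.21, 6.17 and 5.01 on BSC arrays 3, 5 and 7 and of 7.62, 8.04 and 7.39 on MC arrays 4, 6 and 8. AOX1A was lower in BSCs, by a log2 fold change of -1.55 ± 0.56 (standard error). The senescence-associated gene SAG13 was at 3.54, 3.65 and 3.23 on the BSC arrays and at 3.02, 2.61 and 3.01 on the MC arrays, and was higher in BSCs (0.59, standard error 0.17). The adjusted p was 1 for each in limma. Neither passed with a trended prior, at a mean of at least 3 or after quantile normalization (-0.82 and 0.62), and AOX1A failed the methods' t-test. The call of AOX1A also ended without MC array 4, 6 or 8 or BSC array 5 (-1.70 to -1.37), and that of SAG13 without BSC array 3 or 5 or MC array 6 (0.46 to 0.56). The AOX1A call stayed without BSC array 7, but at a smaller -0.99, and without BSC array 3, at -2.09. On BSC array 7, where AOX1A was lowest, 78 probe sets reached a log2(NREL) of 5 or more, against 406 to 1157 on the other arrays. The lists are of 17 secondary wall genes (1 named), 11 senescence genes (3), 5 genes of mitochondrial stress (4), 5 genes of organ boundaries (1) and 5 drought genes (0), with 1 gene in more than 1 list.

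The markers that had a named probe set did not separate the cell types, so the labels have no check here. Of 30 marker genes listed, 3 had a named probe set, and 0 of the 4 bundle sheath markers did, SCARECROW among those not analysed here. RCA, the Rubisco activase of photosynthesizing cells, was at 8.34, 7.57 and 3.66 on BSC arrays 3, 5 and 7 and at 6.69, 8.98 and 6.15 on MC arrays 4, 6 and 8. SWEET11, a sucrose exporter of the phloem parenchyma, ranged from 2.43 to 3.80 in BSCs and from 2.78 to 3.55 in MCs. FMA, a regulator of guard cell formation, ranged from 1.81 to 2.35 and from 1.83 to 1.98. None of the 3 passed in limma, and each overlapped between the cell types. SWEET11 and FMA were listed for cell types other than BSCs and MCs. RCA was listed as a mesophyll marker and did not separate the BSC and MC arrays. The study describes both BSCs and MCs as green cells, with fewer chloroplasts in BSCs. It also reports that most of its differing chloroplast genes were lower in BSCs. BSC array 7, where RCA was lowest, had 78 probe sets at a log2(NREL) of 5 or more, against 406 to 1157 on the other arrays. The NAC014 value of this array lay within the range of the others, and without it the log2 fold change of NAC014 was -0.05.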

How the data were processed

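The deposited log2 values, 1 per probe set and array, were made by the authors from the array files with robust multi-average normalization in Partek (6.6 in the submitters' processing notes), and these were used unchanged. As deposited, the arrays do not share the same distribution of values. Their medians ran from 1.88 to 2.06, and 78 to 1157 probe sets per array were at 5 or more. The 64 control probe sets were left out. Gene names come from the array's annotation table, with symbols updated through gene numbers to those of TAIR10.1, and for 46 probe sets from Data S1 of the study, whose fold changes and p values were not used. The 503 probe sets shared by several genes got no name. The members and lists were chosen with earlier results of these data known. The text names the members, the listed target genes with a named probe set, and the 3 markers.

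limma 3.58.1 (R 4.3.3) was fitted over 22746 probe sets with cell type as the only factor, 2-sided, with Benjamini-Hochberg adjustment, and was first tested on simulated data. The alternatives comprised the methods' t-test (the Student's t-test that the study names for means in general, not for the arrays, for which it names an analysis of variance), a trended prior, array weights, centring on the median, quantile normalization, minimum mean levels, omission of shared probe sets, the lowest probe set of a gene and omission of each array. Arrays give no depth, so their number limits the precision. Figures were drawn with matplotlib 3.10.9.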

Additional observations from a re-analysis of the deposited data

How the results depend on the processing

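NAC014 stayed below the thresholds in all 12 other settings that gave it a value, with unadjusted p from 0.585 to 0.935. Its mean stayed below 2 in BSCs and MCs after median centring, after quantile normalization and whichever array was left out. With array weights, whose estimation did not fully converge, its log2 fold change turned to 0.035. With 1 array left out it ranged from -0.055 to 0.064. NAC014 has 1 probe set, so the choice of the probe set with the lowest mean changed nothing, and filters at a mean of 2 or 3 removed it and gave no value. RCA turned to 0.71 with array weights and ranged from -1.66 to 0.68 with 1 array left out, and SWEET11 ranged from -0.24 to 0.45. BSC and MC arrays were not paired in any fit, because they share no number in their labels and no source used here says which arrays belong together. With 3 arrays per cell type and such a low signal, a difference in NAC014 smaller than the interval could not be seen.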
